A study of Mus musculus with 227 samples.

Results

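The synaptic vesicle and release genes are 30 genes, most of whose products load, dock, fuse and recycle the transmitter-filled vesicles of nerve terminals. Camk2a, a kinase gene of excitatory neurons, is also among the 30. They were chosen by name, by matching the gene symbols of the deposited count table, and all 30 were found among its 31689 genes with 1 row each. They are described here across 218 drug and 9 vehicle libraries of primary mouse cerebrocortical cultures.

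A synaptic vesicle fuses when the vesicle protein VAMP2 zips together with syntaxin-1 and SNAP25 on the terminal membrane, an assembly that complexins clamp and that the calcium sensor synaptotagmin-1 triggers. RIM, Munc13, bassoon and piccolo hold and prime vesicles at the active zone, the patch of membrane where release takes place. After fusion, NSF and its SNAP partners pull the complex apart, while dynamin, amphiphysin, endophilin and synaptojanin retrieve the membrane. In cortex these transcripts are largely neuronal, so in bulk RNA from a mixed culture fewer neurons and less RNA per neuron cannot be told apart.

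Many neuronal genes share regulatory elements near their starts, and 4 promoter windows are shown: those of Syn1 and Sh3gl2 for a motif that no other window of a member holds, that of Syp, one of the members closest to the neuron markers, and that of Cplx1, the member least related to them. RefSeq windows (GRCm38.p6, the same assembly as the mm10 build of the counts) were held for 24 of the 30 members. Each is the 250 bases before an annotated start, in lower case, with matches to a searched motif on either strand in capitals.
Syn1, chrX:20920919-20921168, minus strand: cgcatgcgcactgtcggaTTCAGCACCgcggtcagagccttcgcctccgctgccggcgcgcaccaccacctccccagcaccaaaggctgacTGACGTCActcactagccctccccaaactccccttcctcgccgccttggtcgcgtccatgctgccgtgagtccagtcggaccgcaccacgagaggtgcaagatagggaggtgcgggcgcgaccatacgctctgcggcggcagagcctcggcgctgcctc
Sh3gl2, chr4:85205206-85205455, plus strand: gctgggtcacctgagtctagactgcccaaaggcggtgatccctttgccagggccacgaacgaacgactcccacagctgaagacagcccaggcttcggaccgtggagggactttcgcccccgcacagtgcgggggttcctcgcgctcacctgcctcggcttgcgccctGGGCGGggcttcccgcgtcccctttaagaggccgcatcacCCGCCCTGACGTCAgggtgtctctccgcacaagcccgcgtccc
Syp, chrX:7638330-7638579, plus strand: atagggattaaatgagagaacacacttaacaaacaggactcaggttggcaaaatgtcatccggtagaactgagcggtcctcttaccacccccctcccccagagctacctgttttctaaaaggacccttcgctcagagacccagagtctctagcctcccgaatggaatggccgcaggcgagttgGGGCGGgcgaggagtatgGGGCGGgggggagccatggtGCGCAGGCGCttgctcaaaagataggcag
Cplx1, chr5:108550028-108550277, minus strand: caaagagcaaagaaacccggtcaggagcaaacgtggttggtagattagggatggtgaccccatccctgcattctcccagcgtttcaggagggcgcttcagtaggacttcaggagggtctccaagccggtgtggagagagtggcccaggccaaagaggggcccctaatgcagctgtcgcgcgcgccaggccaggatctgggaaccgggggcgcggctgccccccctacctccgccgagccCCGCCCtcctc
The Syn1 window holds TTCAGCACC, the left part of the element bound by the repressor REST, and TGACGTCA, the full cyclic AMP response element. TTCAGCACC occurs in 0.301% of 32851 RefSeq windows of this length and in 1 of the 32 windows of members. TGACGTCA occurs in 1.55% of all windows and in 2 members, Sh3gl2 and Syn1; in Sh3gl2 it abuts a GC box. The GC box GGGCGG was in 16 of the 32 windows of members, against 32.7% of all windows, and is the motif found in the Cplx1 window. A motif of the factor NRF1 was in 4 windows of members (Bsn, Nsf, Pclo and Syp), against 3.74% of all windows, and the right part of the REST element was in none of them, against 0.0974% of all windows. These matches describe letters and not occupied sites.

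The cultures came from embryonic day 16.5 cortices of F1 embryos of FVBN mothers and C3B6F1 fathers and were 21 days in vitro. Each of 218 drugs was applied for 8 h to 1 library's culture, and 9 libraries received vehicle, 0.2% DMSO. Drug doses are not given in the sources used here, and nothing says whether the vehicle libraries came from separate cultures, so p-values measure the spread between these libraries, which may be technical. Each column name carries 1 of 9 run codes and, for drugs, a serial number; what either marks is not stated. The run codes are lettered A to I here in ascending order of their number, and run codes D, E and I, with 44 libraries, hold no vehicle.

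Libraries held 22.02 to 65.19 M counts (median 34.99 M), and 31.4 to 43.77 M in vehicles. Summed over their lists, 10 neuron markers gave 2959 to 5185 CPM (counts scaled to library size) across all libraries and 10 astrocyte markers 5978 to 9515 CPM. The 10 oligodendrocyte markers summed to 288.5 to 724.5 CPM and 11 fibroblast, mural and endothelial markers to 42.5 to 134.5 CPM. The 10 microglia markers summed to 2.50 to 26.8 CPM, with 8 of them under a mean of 1 CPM. Cldn5 and Pecam1 of the endothelium were also under a mean of 1 CPM, while Kdr was not. The cultures thus carried the markers of neurons and astrocytes at high levels and those of microglia near 0.

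Per length, the members were among the most abundant transcripts of the cultures: by mean deposited RPKM (reads scaled to gene length and library size), 23 of 30 stood at or above percentile 95 of all genes. Vamp2 and Snap25 led the order, while Stx1a, the syntaxin of the same complex, stood at rank 21 with 64.6 ± 12.3 RPKM in vehicles. Vamp2, the vesicle SNARE, ranged over 296 to 586 RPKM in drug libraries and averaged 480.8 ± 68.2 RPKM in vehicles (SD, n = 9). Snap25, its partner on the terminal membrane, ranged over 251 to 499.5 RPKM in drug libraries and averaged 422 ± 56.2 RPKM in vehicles. Syp, the vesicle membrane protein synaptophysin, averaged 386 ± 45.3 RPKM in vehicles, and Syt1, the fast calcium sensor, 258 ± 20.3 RPKM.

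At the other end stood Slc17a6, the vesicular glutamate transporter VGLUT2, with 3.78 to 9.14 RPKM in drug libraries and 5.2 ± 0.521 RPKM in vehicles. Vamp1, a VAMP2 relative that dominates in spinal cord and brainstem, followed with 9.63 ± 0.738 RPKM in vehicles, and the active zone scaffold gene Rims2 with 12.02 ± 0.692 RPKM. Of the 29 neighbouring pairs in the order of level, 5 had vehicle ranges that did not overlap: Syp above Syt1, Syn2 above Syngr3, Rims1 above Pclo, Rims2 above Vamp1, and Vamp1 above Slc17a6. The vehicle ranges of the other neighbours overlapped, which does not mean equal levels: Vamp2 was above Snap25 within every vehicle library.

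**Figure D1:**
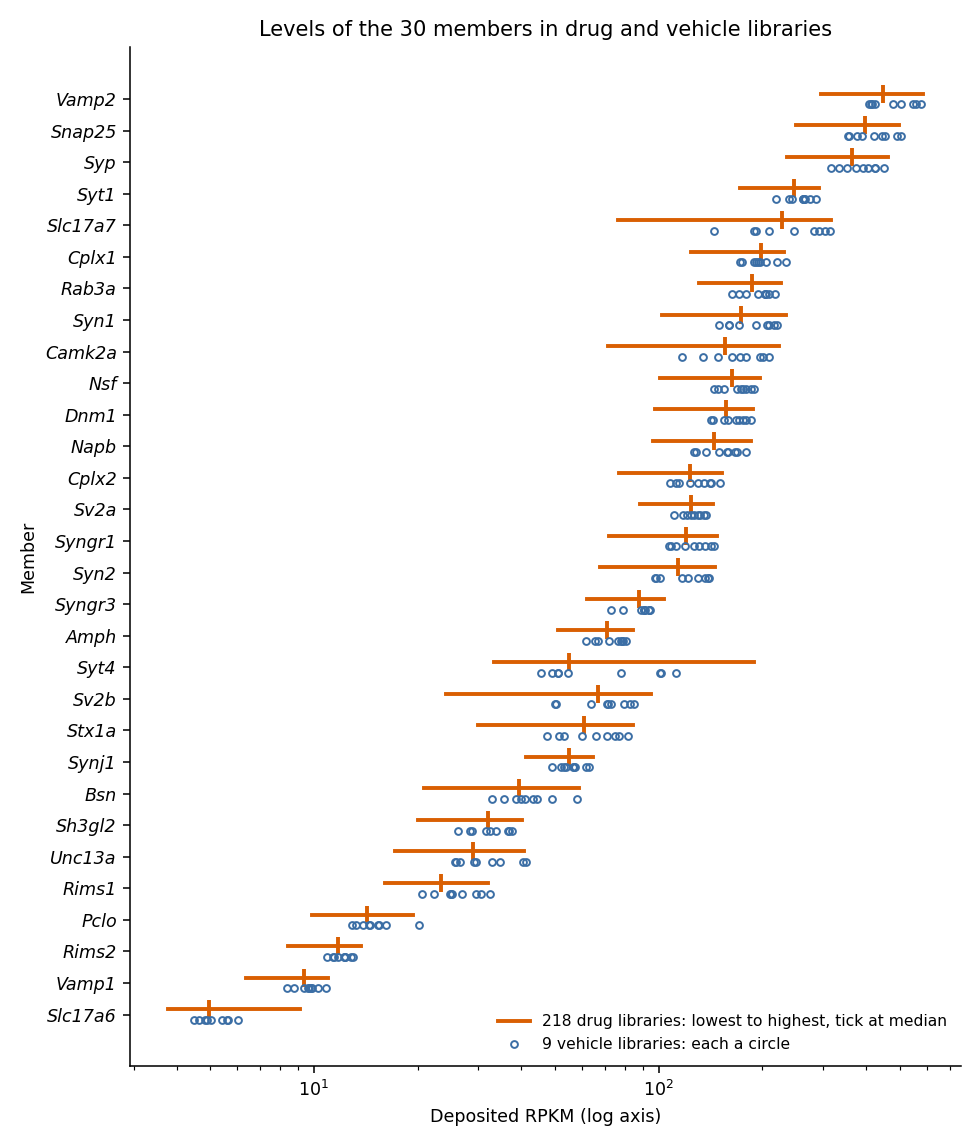
Deposited RPKM (log axis) of the 30 members, ordered by vehicle mean. For each gene the upper bar spans the lowest to the highest of 218 drug libraries with a tick at the median, and the lower circles are the 9 vehicle libraries. Vamp2 averaged 480.8 and Slc17a6 5.2 RPKM in vehicles, and the widest bars belong to Slc17a7, Sv2b, Camk2a and Syt4.

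Members that belong to a family differed in level, often by large steps. The log2 ratio of deposited RPKM of Slc17a7, the cortical glutamate transporter VGLUT1, over Slc17a6 was 4.1 to 6.2 in drug libraries (median 5.45) and 4.7 to 5.9 in vehicles (median 5.7). Vamp1 over Vamp2 had a median of -5.58 in drug libraries and -5.64 in vehicles. The first-named gene was the higher in every drug and vehicle library for Syn1 over Syn2 (vesicle phosphoproteins), Sv2a over Sv2b (vesicle glycoproteins), Cplx1 over Cplx2, Rims1 over Rims2, Syngr1 over Syngr3 (synaptogyrins), Bsn over Pclo, and Syt1 over Syt4. Syn1 over Syn2 was the tightest ratio, at 0.42 to 0.85 in drug libraries and 0.55 to 0.71 in vehicles, with an SD of 0.067 within run codes. The loosest were Slc17a7 over Slc17a6 and Syt1 over Syt4, each with an SD of 0.348 within run codes.

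Some of these ratios reached their extreme in libraries that recur below. Rims1 over Rims2 was lowest with Nilotinib, at 0.47, against 0.87 to 1.37 in vehicles, and Syngr1 over Syngr3 was also lowest there, at 0.02, against 0.25 to 0.63 in vehicles. Cplx1 over Cplx2 and Sv2a over Sv2b were lowest with Fenofibrate, at 0.17 and 0.42, against 0.29 to 1.03 and 0.61 to 1.46 in vehicles. Syt1 over Syt4 was lowest with CE-326597, at 0.46, against 1.2 to 2.5 in vehicles. These minima are descriptions over 218 drug libraries, without a test.

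How far a member moved between libraries depended on the gene. Within run codes the SD of log2 CPM was largest for Syt4 (0.403), a synaptotagmin that is induced by activity, for Slc17a7 (0.377), Sv2b (0.351), Camk2a (0.293), the kinase of excitatory neurons, and Stx1a (0.275), the syntaxin. It was smallest for Cplx1 (0.089), Rims2 (0.091), Vamp1 (0.106), Sv2a (0.115) and Synj1 (0.119), the synaptojanin. Over all genes tested the median SD was 0.162, and over the members 0.18. Already among the 9 vehicles Syt4 spanned 170 to 457 CPM and Slc17a7 409 to 964 CPM, each over 2-fold, whereas Rims2 spanned 53.8 to 68.3 CPM.

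The run code in the column name went with the members' levels. In a limma F test over the 9 run codes 91.6% of all 15474 genes passed at an adjusted p under 0.05, and 30 of 30 members did, which is close to that background. Run code accounted for a median of 35.8% of the variance of the members, from 16.3% for Rims2 to 45.3% for Vamp2, and for a median of 23.5% over all genes. The median library of run code F was the lowest of the 9 for 24 members, while run codes D, I and H held the highest median for 12, 8 and 6 members. Slc17a7, for example, had a median of 423 CPM in run code F and 812 CPM in run code I, and Camk2a 659 CPM in run code F and 1114 CPM in run code E. Rims2 hardly varied, with 56.7 CPM in run code C and 62.0 CPM in run code D.

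Other markers moved with the same run codes. Relative to the vehicle mean, the mean log2 CPM of the members was -0.293 in the median library of run code F, where the neuron markers stood at -0.286, the astrocyte markers at 0.306 and 22 activity-regulated genes at -1.36. In run code H the corresponding values were 0.075 for members, 0.093 for neuron markers, -0.08 for astrocyte markers and -0.406 for activity-regulated genes. The part of these markers in the members' differences between run codes was not tested. Among the vehicles alone, the members' mean was lowest in the libraries of run codes C and G and highest in both of run code B and 1 of the 2 of run code H, so a comparison with all 9 vehicles also compares run codes.

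**Figure D2:**
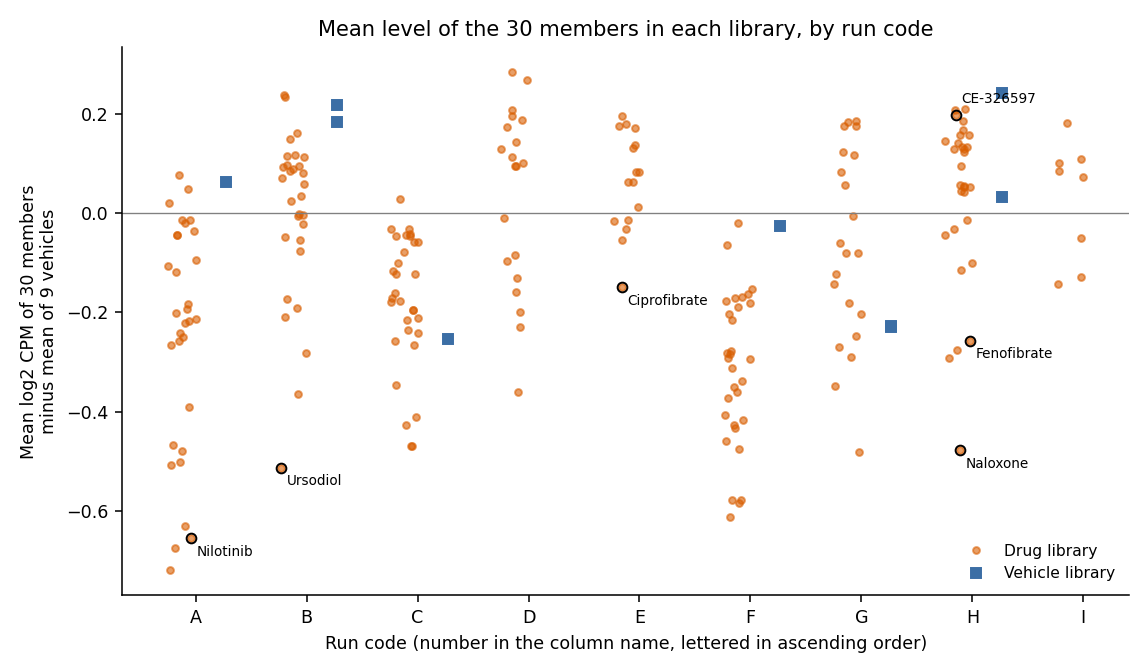
Mean log2 CPM of the 30 members in each library minus the mean of the 9 vehicles, by run code. Circles on the left of each run code are drug libraries, squares on the right are vehicles, and libraries named in the text are ringed. Run code F lies below 0 throughout, run codes D, E and I have no vehicle, and the lowest values belong to run code A, down to -0.719.

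Against the 9 vehicles, members passed in 2 of 218 drug libraries by edgeR's quasi-likelihood test, with Benjamini-Hochberg adjustment over all genes. With Nilotinib, a kinase inhibitor of BCR-ABL used in leukaemia, 12 members fell and none rose, beside 12.2% of all genes called in either direction, 6.02% lower and 6.2% higher. With Fenofibrate, a fibrate that activates the nuclear receptor PPAR-alpha, 4 members fell and none rose, beside 10.6% of all genes called, 4.78% lower and 5.82% higher. When each vehicle was set against the other 8, no member passed in edgeR or DESeq2, and at an unadjusted p under 0.05 edgeR gave up to 3 members in 1 vehicle library.

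A second comparison set each drug library against the other libraries of its run code, in a limma fit over all drug and vehicle libraries on log2 CPM. There 23 members fell with Ursodiol, a bile acid used against gallstones (9.65% of all genes called lower and 9.37% higher), 17 with Nilotinib (10.5% called lower), 5 with Fenofibrate (13.6% called lower) and 1 with Ciprofibrate, another fibrate (1.79% called lower). With CE-326597, 2 members rose (2.39% called higher). No member passed in any vehicle library of this fit, and at an unadjusted p under 0.05 limma gave up to 3 members in 1 vehicle library.

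Apart from Camk2a, the members that fell with Nilotinib came from several steps of the vesicle cycle. Sv2b had 139.3 CPM with Nilotinib, against 138.7 to 509.5 CPM (median 344) in the other libraries of its run code and 272 to 484 CPM in vehicles. Camk2a had 430 CPM with Nilotinib, against 406 to 1097 CPM in the rest of the run code and 636 to 1233 CPM in vehicles. Both lay below every vehicle but not below every library of the run code. Against vehicles the log2 fold changes were -1.54 ± 0.326 for Sv2b (SE, edgeR adjusted p = 0.0161) and -1.19 ± 0.328 for Camk2a (edgeR adjusted p = 0.0412).

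Other members were lower with Nilotinib than in any other library of the run code. Nsf, the ATPase that takes SNARE complexes apart, had 363 CPM with Nilotinib, against 411 to 689 CPM in the rest of the run code and 531 to 728 CPM in vehicles. Vamp1 had 24.9 CPM with Nilotinib, against 29.2 to 40.5 CPM in the rest of the run code and 33.4 to 44.7 CPM in vehicles. Within the run code the log2 fold changes were -0.65 ± 0.163 for Nsf (limma adjusted p = 0.0013) and -0.50 ± 0.102 for Vamp1 (limma adjusted p = 4.89e-05). In all, 10 members lay below every other library of run code A and 27 below every vehicle.

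Endocytosis and SNARE genes were also among the members that fell with Nilotinib. Dnm1, which encodes dynamin, had 449.7 CPM with Nilotinib, against 480 to 858 CPM in the rest of the run code and 666 to 928 CPM in vehicles (log2 fold change over vehicles -0.85 ± 0.181, edgeR adjusted p = 0.0166). Synj1 had 284 CPM with Nilotinib, against 312 to 461 CPM in the rest of the run code and 347 to 454 CPM in vehicles (-0.54 ± 0.135, edgeR adjusted p = 0.0306). Snap25, Napb, Cplx2, Syngr1, Syt1 and Sv2a made up the rest of the 12 that passed against vehicles, at -0.90 to -0.52.

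A few members did not share this direction. Syt4 had 257.5 CPM with Nilotinib, above 29 of the 31 other libraries of the run code and within the 170 to 457 CPM of the vehicles, with a log2 fold change of 0.43 ± 0.406 within the run code (limma adjusted p = 0.52). Rims2 had 64.6 CPM with Nilotinib, against 53.8 to 66.9 CPM in the rest of the run code and 53.8 to 68.3 CPM in vehicles. Slc17a6 had 21.1 CPM with Nilotinib, against 17.6 to 28.3 CPM in the rest of the run code and 19.5 to 27.1 CPM in vehicles.

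Nilotinib stood inside a stretch of low libraries. In run code A the 10 libraries with the lowest serial numbers, a stretch chosen after its values were seen, had a members' mean of -0.719 to -0.266 relative to the vehicle mean, against -0.258 to 0.0763 in the other 22 libraries of the run code, and the 2 ranges did not overlap. Neuron markers in the stretch were at -0.707 to -0.259, against -0.263 to 0.118 in the others, and astrocyte markers at 0.172 to 0.547, against -0.145 to 0.297. Nilotinib's members' mean, -0.654, was above those of 2 of its 10 nearest serial numbers, which spanned -0.719 to -0.184. Against those 10 libraries alone, a comparison added after the data were seen, 1 member fell in limma (Vamp1, -0.35 ± 0.0967, adjusted p = 0.0192) and 1 rose (Syt4, 0.80 ± 0.142, adjusted p = 0.00133), beside 24.9% of all genes called.

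**Figure D3:**
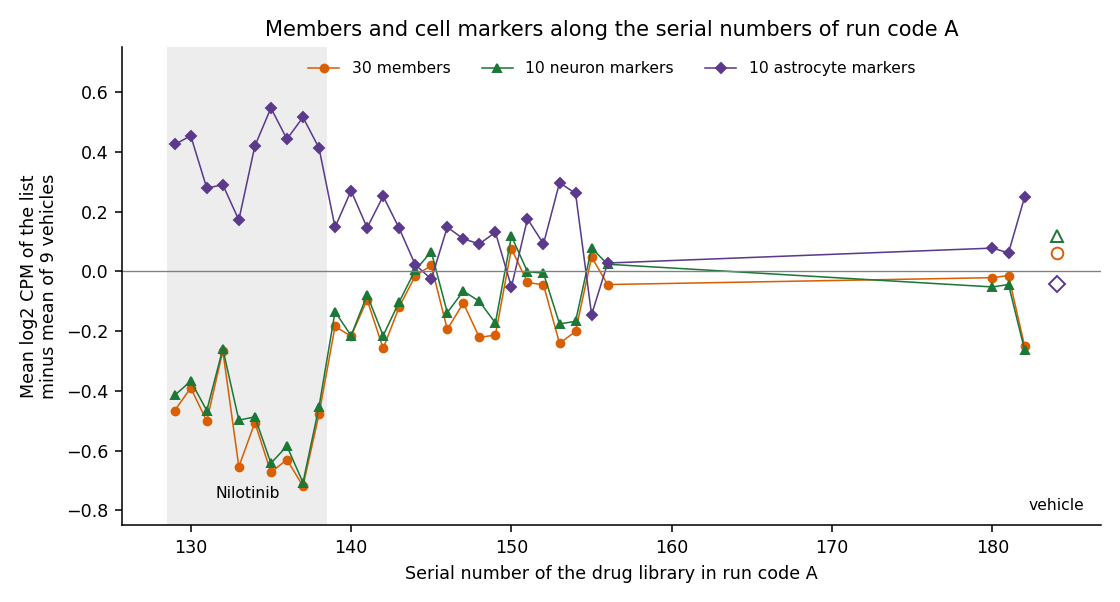
Mean log2 CPM of the members, of neuron markers and of astrocyte markers in run code A, relative to the mean of the 9 vehicles, along the serial number of the drug library. Open symbols on the right are the vehicle library of this run code, and the shaded stretch is the 10 lowest serial numbers. There members run from -0.719 to -0.266 and astrocyte markers from 0.172 to 0.547.

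Genes outside the members also differed between Nilotinib and the rest of its run code. Of 22 activity-regulated genes, 10 rose and none fell within the run code, among them Egr2 (log2 fold change 3.49 ± 0.99, limma adjusted p = 0.00509), Nr4a1 (2.61 ± 0.981, adjusted p = 0.0428) and Gadd45b (2.58 ± 0.395, adjusted p = 4.04e-08). The list's mean was 1.93 above the run-code median, while the astrocyte markers were at 0.012 and the neuron markers at -0.346. Of 9 oligodendrocyte-lineage markers tested, 4 fell, including Pdgfra (-1.46 ± 0.22, limma adjusted p = 2.42e-08), which marks oligodendrocyte precursors. Their summed level was 289 CPM with Nilotinib, against 381 to 603 CPM in the rest of the run code. With the mean of the neuron markers as a further term, also added after the data were seen, the members' median log2 fold change in limma was -0.20. Log2 fold changes of this fit are relative to the neuron marker mean and are not changes in level.

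Other presynaptic genes went the same way with Nilotinib: 21 of 94 fell and none rose against vehicles (median -0.45), and 29 fell and 1 rose within the run code (median -0.29). The largest falls against vehicles were Sncb, beta-synuclein (-0.95 ± 0.265, edgeR adjusted p = 0.0431), Rimbp2, a RIM-binding active zone protein (-0.92 ± 0.213, adjusted p = 0.0228), and Prrt2, which acts in SNARE assembly (-0.92 ± 0.197, adjusted p = 0.0172). Rph3a, rabphilin, fell by 0.81 on the log2 scale and Snap91, a clathrin assembly protein, by 0.80, both past the threshold. Within the run code the 1 that rose was Itsn2, an endocytic scaffold (0.52 ± 0.113, limma adjusted p = 0.000165).

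With Fenofibrate, 5 members fell within the run code, of which Sv2a, Syt1 and Synj1 also fell with Nilotinib against vehicles. The largest fall was in Cplx1 (ENSMUSG00000033615.9, chr5:108518554-108550024, minus strand, GENCODE vM21 on GRCm38), the complexin that was otherwise the steadiest member. Cplx1 had 268.5 CPM with Fenofibrate, against 431 to 502 CPM (median 462) in the other 31 libraries of run code H and 372 to 490.3 CPM in vehicles. It lay below every vehicle and every other library of the run code. The log2 fold change was -0.78 ± 0.0746 within the run code (limma adjusted p = 3.62e-18) and -0.70 ± 0.143 over vehicles (edgeR adjusted p = 0.0125).

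Sv2a, the vesicle glycoprotein that binds levetiracetam, had 377 CPM with Fenofibrate, against 485 to 599.9 CPM in the rest of the run code and 468 to 593 CPM in vehicles. Rims2 had 41.7 CPM with Fenofibrate, against 56.5 to 69.6 CPM in the rest of the run code and 53.8 to 68.3 CPM in vehicles. Syt1 had 821 CPM with Fenofibrate, against 1037 to 1407 CPM in the rest of the run code and 1034 to 1387 CPM in vehicles. All lay below every library of the run code and every vehicle, with log2 fold changes within the run code of -0.57 ± 0.11 for Sv2a (limma adjusted p = 8.67e-06), -0.55 ± 0.0844 for Rims2 (adjusted p = 2e-08) and -0.63 ± 0.127 for Syt1 (adjusted p = 2.21e-05). Synj1, at -0.36 ± 0.119 (limma adjusted p = 0.0149), was the fifth member within the run code.

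The members below the threshold with Fenofibrate included those with the widest spread, although 28 of all 30 lay below the run-code median. Slc17a7 had 809 CPM with Fenofibrate, against 296 to 964 CPM (median 779) in the rest of the run code and 409 to 964 CPM in vehicles. Bsn, the active zone scaffold, had 736 CPM with Fenofibrate, against 402 to 968 CPM in the rest of the run code and 502 to 926 CPM in vehicles. Camk2a had 951 CPM with Fenofibrate, against 495 to 1244 CPM (median 1063) in the rest of the run code and 636 to 1233 CPM in vehicles. Each was inside both ranges. Syt4 (202 CPM with Fenofibrate, against 148 to 774 CPM), Stx1a (118 CPM, against 76.4 to 183 CPM) and Sv2b (370.1 CPM, against 175 to 494 CPM) were also inside the range of the run code, below its median.

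Fenofibrate's neighbours in serial number were tighter, with a members' mean of -0.032 to 0.21 relative to the vehicle mean, against -0.257 for Fenofibrate itself. Against those 10 libraries 25 members fell and none rose in limma, beside 50.2% of all genes called and 25.1% called lower. The 5 members that passed within the run code passed there too. With the neuron marker mean as a further term the members' median log2 fold change in limma was 0.05. Slc17a7 was at 0.94 ± 0.167 relative to that mean, although its CPM lay inside the range of the run code.

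Markers of inhibitory neurons moved with Fenofibrate: 9 of 10 fell within the run code, including Gad2 (-1.39 ± 0.137, limma adjusted p = 2.15e-17), and their sum was 1025 CPM with Fenofibrate, against 1610 to 2141 CPM in the rest of the run code. Of the neuron markers 4 of 10 fell, and of the astrocyte markers 4 rose and 2 fell, with a sum of 9391 CPM, against 6346 to 9299 CPM. Their part in the members' result was not tested. Of 94 other presynaptic genes 26 fell and 5 rose within the run code. Rab3c, a vesicle GTPase, had 379.8 CPM with Fenofibrate, against a vehicle median of 730 CPM (-0.90 ± 0.127 within the run code, limma adjusted p = 1.74e-09), and Slc32a1, the vesicular GABA transporter, fell to 107 CPM with Fenofibrate, against a vehicle median of 171 CPM (-0.77 ± 0.0905, adjusted p = 6.19e-13). Rab3gap2, a regulator of Rab3, rose by 0.52 ± 0.104 (limma adjusted p = 1.9e-05).

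Ciprofibrate, the other fibrate with a member past the threshold, came from run code E, which has no vehicle, and doses are not known for either drug, so no comparison between them was made. Rims2 had 48.8 CPM with Ciprofibrate, against 55.1 to 72.5 CPM in the rest of run code E and 53.8 to 68.3 CPM in vehicles. Its log2 fold change within the run code was -0.33 ± 0.0912 (limma adjusted p = 0.0232), and no member passed against vehicles in edgeR (0.723% of all genes called, 2 members at an unadjusted p under 0.05). Cplx1 had 399 CPM with Ciprofibrate, against 407 to 461 CPM in the rest of the run code and 372 to 490.3 CPM in vehicles, and did not pass (-0.14 ± 0.0922, limma adjusted p = 0.451). All 30 members lay below the run-code median and 21 below every other library of the run code, at a median log2 fold change of -0.21. The members' mean of Ciprofibrate was -0.149 relative to the vehicle mean, against -0.055 to 0.175 in its 10 nearest serial numbers. No member passed against those in limma, beside 122 of 13873 genes called, and 10 members had an unadjusted p under 0.05. Neuron markers were at -0.192 with Ciprofibrate, against -0.047 to 0.28 in these neighbours.

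Ursodiol had the lowest members' mean of all libraries relative to its run code, at -0.578 from the run-code median. Slc17a7 had 366.5 CPM with Ursodiol, against 425 to 931 CPM (median 780) in the rest of run code B and 409 to 964 CPM in vehicles. Camk2a had 528 CPM with Ursodiol, against 627 to 1240 CPM in the rest of the run code and 636 to 1233 CPM in vehicles. Syp had 659.6 CPM with Ursodiol, against 761 to 1201 CPM in the rest of the run code and 801 to 1217 CPM in vehicles. Each lay below every other library shown, as did 26 of the 30 members within the run code and 29 against the vehicles.

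The median log2 fold change within the run code was -0.55 over the members, with a range of -1.01 to 0.001, against 0.0097 over all genes. Within the run code the log2 fold changes were -1.01 ± 0.375 for Slc17a7 (limma adjusted p = 0.0463), -0.90 ± 0.29 for Camk2a (adjusted p = 0.0319) and -0.62 ± 0.177 for Syp (adjusted p = 0.0316). Slc17a6 had 21.7 CPM with Ursodiol, against 17.8 to 29.2 CPM in the rest of the run code and 19.5 to 27.1 CPM in vehicles. Against the 9 vehicles no member passed in edgeR, where 22 had an unadjusted p under 0.05 and the median log2 fold change was -0.56, and none passed in DESeq2.

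With Ursodiol the cell markers moved as well. Of 10 neuron markers 8 fell within the run code and of 10 astrocyte markers 4 rose, among them Gfap (1.57 ± 0.472, limma adjusted p = 0.0316), the intermediate filament of astrocytes. The astrocyte markers summed to 9515 CPM with Ursodiol, against 6395 to 8598 CPM in the rest of the run code, and the neuron markers to 3287 CPM, against 3616 to 4990 CPM. Against the 10 nearest serial numbers 0 of 13750 genes passed in limma, so none of the members did. There 25 members had an unadjusted p under 0.05, at a median log2 fold change of -0.43. With the neuron marker mean as a further term 0 of 15474 genes passed. In that fit no member had an unadjusted p under 0.05, at a median of -0.03. Of 94 other presynaptic genes 40 fell and 1 rose. The 1 that rose was Syngr2, a synaptogyrin found outside neurons too (0.83 ± 0.231, limma adjusted p = 0.0309).

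**Figure D4:**
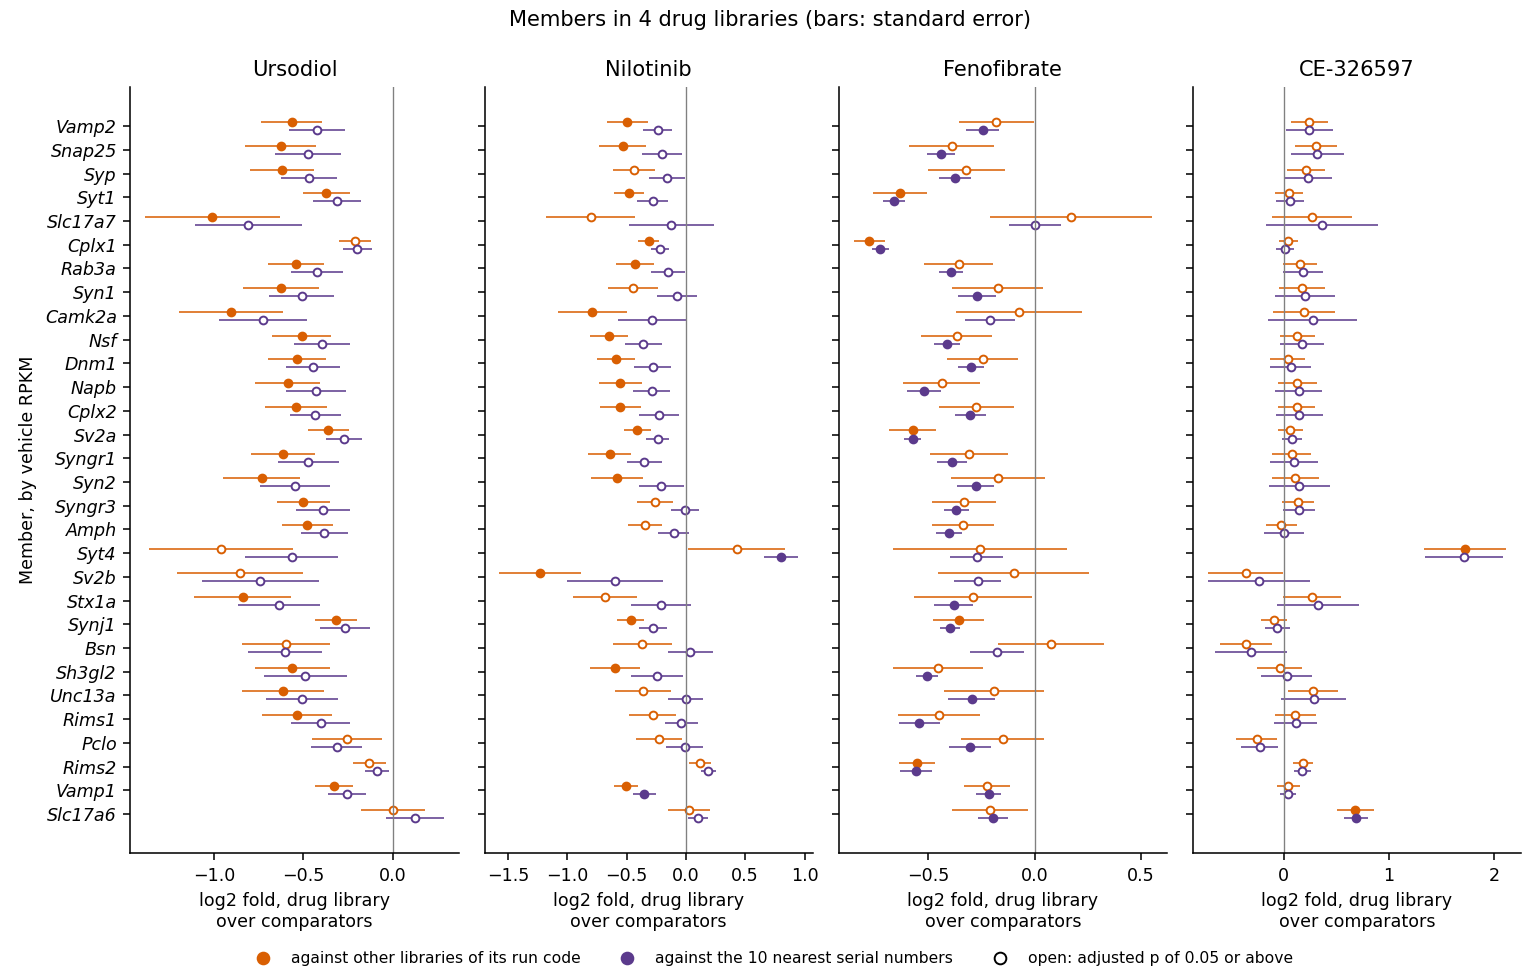
Log2 fold change of each member (bars: SE) in the Ursodiol, Nilotinib, Fenofibrate and CE-326597 libraries over the other libraries of the run code (upper point) and over the 10 libraries of the run code with the nearest serial numbers (lower point). Filled points had an adjusted p under 0.05 in limma. Against the nearest serial numbers no member is filled with Ursodiol, where 0 of 13750 genes passed. Vamp1 and Syt4 are filled with Nilotinib, and 25 members are with Fenofibrate.

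With CE-326597, Syt4 and Slc17a6 were high. Syt4 had 774 CPM with CE-326597, against 148 to 457 CPM (median 234) in the rest of run code H and 170 to 457 CPM in vehicles. Slc17a6 had 35.6 CPM with CE-326597, against 19.3 to 27.1 CPM in the rest of the run code and 19.5 to 27.1 CPM in vehicles. Both stood above every other library of the run code and every vehicle. The log2 fold changes within the run code were 1.72 ± 0.39 for Syt4 (limma adjusted p = 0.00294) and 0.68 ± 0.172 for Slc17a6 (adjusted p = 0.00781), and neither passed against vehicles in edgeR (1.44 ± 0.456, adjusted p = 0.497, and 0.65 ± 0.153, adjusted p = 0.387), where 0.0195% of all genes were called, all of them higher. Against the 10 nearest serial numbers Slc17a6 passed in limma (0.69 ± 0.114, adjusted p = 0.0214) and Syt4 did not (1.71 ± 0.368, adjusted p = 0.0536), beside 164 of 13780 genes called.

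Over all 30 members the median log2 fold change with CE-326597 was 0.12, with the lowest at -0.36 for Sv2b. Snap25 and Syngr3 also lay above every other library of the run code, and 7 members lay above every vehicle, but none beside Syt4 and Slc17a6 passed. The activity-regulated genes summed to 3087 CPM with CE-326597, against 410 to 2461 CPM in the rest of the run code, and 3 of 22 passed, all upward: Fos (2.82 ± 0.87, limma adjusted p = 0.0401), Nr4a2 (1.53 ± 0.374, adjusted p = 0.00582) and Homer1 (1.39 ± 0.44, adjusted p = 0.0467). The neuron markers summed to 5085 CPM with CE-326597, against 3360 to 4906 CPM in the rest of the run code, with the neurofilament genes Nefl and Nefm past the threshold (Nefm 1.27 ± 0.293, limma adjusted p = 0.00362). With the neuron marker mean as a further term the members' median log2 fold change in limma was -0.20. This value is relative to a marker mean that was itself high with CE-326597.

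Naloxone·HCl, an opioid receptor antagonist, had the second lowest members' mean, at -0.552 from the median of run code H, with 22 members below every other library of the run code. No member passed there in edgeR, where 13 had an unadjusted p under 0.05, nor in the limma fit of all libraries, where 23 did. When limma was fitted on run code H alone, 21 members fell with Naloxone·HCl, beside 14.7% of all genes called and 9.42% called lower. Against the nearest serial numbers of the run code no member passed in limma, where 0 of 13802 genes did. Log2 fold changes there ran from -1.335 for Slc17a7 to 0.142 for Cplx1. With the neuron marker mean as a further term no member passed either, beside 1 of 15474 genes called. Values relative to that mean ran from -0.362 for Sv2b to 0.209 for Syt4. Slc17a7, Sv2b, Camk2a, Stx1a, Syn1, Bsn and Unc13a each had their lowest run-centred value of all libraries there, down to -1.41 for Slc17a7 on the log2 scale. The astrocyte markers summed to 9299 CPM with Naloxone·HCl, against 6346 to 9391 CPM in the rest of the run code, and the neuron markers to 3360 CPM, against 3450 to 5085 CPM. Oxaprozin, Nortriptyline·HCl and Duloxetine·HCl followed at -0.512, -0.466 and -0.458, and Oxaprozin and Nortriptyline·HCl lie in the low stretch of run code A.

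The highest members' means relative to the run code were those of Raltegravir (0.283), Bisoprolol Fumarate (0.273), Glimepiride (0.264), Lisinopril·2H2O (0.263) and Levocarnitine (0.256), and vehicle libraries 5 (0.269) and 4 (0.266) stood among them. The upper end of the order thus held both drug and vehicle libraries.

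Levetiracetam is an antiepileptic drug that binds SV2A. Sv2a had 555 CPM with Levetiracetam, against 515 to 593 CPM in the rest of run code E and 468 to 593 CPM in vehicles, and its log2 fold change over vehicles was 0.03 ± 0.119 (edgeR adjusted p = 0.999). Sv2b had 469.7 CPM with Levetiracetam, against 363 to 505.5 CPM in the rest of the run code and 272 to 484 CPM in vehicles (0.24 ± 0.278, edgeR adjusted p = 0.999). No member passed with Levetiracetam in edgeR or limma, and none had an unadjusted p under 0.05 in either.

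Drug classes were tested with their drugs as replicates. In edgeR against the 9 vehicles no member passed in 5 benzodiazepines (3.86% of all genes called), 3 dihydropyridines (0.0%), 2 thyroid hormones (1.3%) or 10 antiepileptic drugs (0.0%), with 3, 0, 19 and 0 members at an unadjusted p under 0.05. Over all genes, 2989 of 14735, 861 of 14974, 3193 of 15059 and 1021 of 14551 were under that unadjusted threshold in these 4 classes. In limma with the run code no member passed either, beside 12.1% of all genes in the benzodiazepines, 364 of 15474 genes in the thyroid hormones and 0.0% in the dihydropyridines and the antiepileptic drugs. At an unadjusted p under 0.05 in limma stood 2, 0, 0 and 4 members in the benzodiazepines, dihydropyridines, thyroid hormones and antiepileptic drugs. Of all 15474 genes 3819, 1068, 1523 and 3077 did so. DESeq2 called 1 member lower in the benzodiazepines (721 of 15817 genes called lower) and 2 in the thyroid hormones (3.61% of all genes called lower). In the thyroid hormones the members' median log2 fold change was -0.33 over vehicles in edgeR and -0.03 within run codes in limma, where it was -0.10 without Levothyroxine·Na and 0.02 without Liothyronine·Na.

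Rims1, the priming scaffold RIM1, came nearest to the threshold among the benzodiazepines, which enhance GABA-A receptors. It had 105 to 159.6 CPM (median 129) in the 5 benzodiazepine libraries, against 131 to 212 CPM in vehicles, and the ranges overlapped. Its log2 fold change was -0.38 ± 0.125 over vehicles (edgeR adjusted p = 0.1) and -0.23 ± 0.0873 within run codes (limma adjusted p = 0.0631). In the antiepileptic drugs all 30 members had a positive log2 fold change within run codes, with a median of 0.11, against -0.004 over all genes. The members moved together across libraries (median pairwise correlation 0.801), so these are not 30 separate observations. Cplx2 had the lowest p (0.13 ± 0.0581, limma adjusted p = 0.234). With single drugs left out, 28 to 30 were positive, and the members at an unadjusted p under 0.05 in limma, 4 with all drugs, numbered 17 without Lacosamide and 0 without Primidone or Pregabalin. The count over all genes moved too. It was 3077 of 15474 with all drugs, 5103 of 15475 without Lacosamide, 2459 of 15471 without Primidone and 2272 of 15472 without Pregabalin. Over vehicles 25 were positive in edgeR, with a median of 0.06, against -0.003 over all genes.

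Across the libraries the members moved together. After centring each gene on its run-code median, 434 of 435 pairs of members had a positive correlation, with a median of 0.801, and Syp with Napb, the beta-SNAP, was the closest pair at 0.975. A member's mean correlation with the others was highest for Nsf (0.834), Napb, Syp and Rab3a, the vesicle GTPase (each 0.831), and lowest for Cplx1 (0.287), Slc17a6 (0.338), Rims2 (0.466) and Vamp1 (0.561). All points share libraries and scaling factors, so these values are descriptions.

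Each member was then set against the mean of 10 neuron markers and the mean of 22 activity-regulated genes, as 60 relations with 100000 permutations within run codes and adjustment over all 60. All 30 members rose with the neuron markers, at a median Pearson r of 0.888. Members and neuron markers are largely neuronal and share libraries and scaling factors, so rising together was likely beforehand and these values are descriptions. The permutations also treat libraries of a run code as exchangeable, which the low stretch of run code A goes against. Rab3a gave r = 0.966 (Spearman's rho 0.961, both with permutation p = 1e-05, the smallest possible, adjusted p = 1.1e-05) and 0.911 to 0.984 within single run codes. Cplx1 gave r = 0.332 (permutation p = 1e-05, adjusted p = 1.1e-05) and rho 0.226 (permutation p = 0.00075, adjusted p = 0.00078), with r = 0.298 without the 2 libraries farthest from the median and -0.088 to 0.677 within single run codes, so its relation did not hold in every run code.

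With the activity-regulated genes Syt4 gave the highest value, r = 0.83 and rho = 0.835 (both permutation p = 1e-05, adjusted p = 1.1e-05), with r = 0.818 without the 2 farthest libraries and 0.634 to 0.972 within single run codes. Its r with the neuron markers was 0.775. Unc13a, the Munc13 priming factor, followed with r = 0.685, and Vamp2 with r = 0.654. At the other end Synj1 gave r = 0.093 (permutation p = 0.15, adjusted p = 0.15) and Cplx1 r = -0.146 (permutation p = 0.032, adjusted p = 0.033; rho -0.133, permutation p = 0.048, adjusted p = 0.048), with -0.382 to 0.229 within single run codes. Nilotinib combined an activity-gene mean 1.93 above its run-code median with neuron markers 0.346 below it, and Syt4 there was above the run-code median while most other members were below it.

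**Figure D5:**
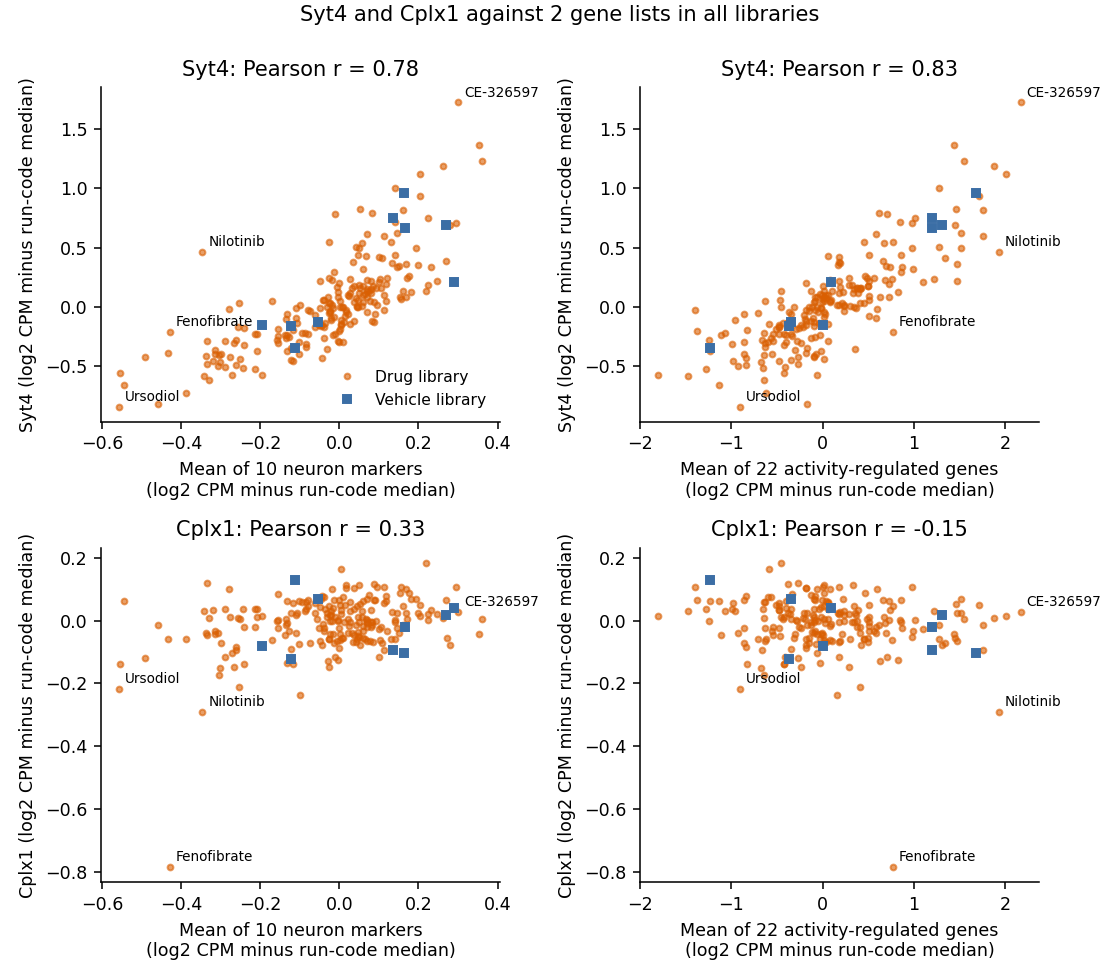
Syt4 (top) and Cplx1 (bottom) in each library against the mean of neuron markers (left) and of activity-regulated genes (right), all as log2 CPM minus the run-code median. Circles are drug libraries and squares vehicles. Syt4 rises with both lists (r = 0.775 and 0.83), while Cplx1 stays near 0 in nearly all libraries except Fenofibrate.

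Counts of some members can include reads of genes that overlap them on the other strand, since the strand setting of the counting is not given in the sources used here. The largest such partner is Araf at Syn1, with 1040589 reads in all libraries against 4541421 counted for Syn1, and Ciz1 at Dnm1 had 319459 against 5929117 for Dnm1.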

How the data were processed

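RNA-seq counts and RPKM values were deposited by the authors for 218 drug libraries and 9 vehicle libraries of mouse cortical cultures. The deposited counts are raw reads per gene, and the submitters' processing notes name STAR 2.4.0, Subread 1.4.6, edgeR 3.10.5 and the mm10 build without giving their roles. The deposited RPKM values were used as the authors made them, for levels between genes only. Members and gene lists were chosen with earlier results of these data known. Single drug libraries were set against the 9 vehicles by edgeR 4.0.16 (TMM factors, filterByExpr, quasi-likelihood test) and with the other libraries of its run code by limma 3.58.1 on log2 CPM with a prior count of 2, in R 4.3.3. Calls needed a Benjamini-Hochberg adjusted p under 0.05 over all genes tested. Drug classes were compared in the same 2 ways, each drug counting as 1 replicate. Relations used permutations within run codes. Promoter windows came from RefSeq (GRCm38.p6). Drug libraries were named where a member passed in either comparison or where the members' mean was among the 5 highest or 5 lowest relative to the run code, plus Levetiracetam; of other presynaptic genes up to 5 rises and 5 falls, and of each marker list up to 3 genes, were named by size among those past the threshold. Alternatives were DESeq2 1.42.0, other scaling, no low-count filter, libraries of the same run code alone, each vehicle left out, and, chosen after seeing the data, the 10 nearest serial numbers and a neuron marker term. The tests were also tried on simulated data. Depth was 22.02 to 65.19 M counts a library. One result among the other presynaptic genes is not reported here.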

Additional observations from a re-analysis of the deposited data

How the results depend on the processing

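Against vehicles, drug libraries with a called member numbered 2 in edgeR and 12 in DESeq2. Nilotinib had 12 called members in edgeR, 24 in DESeq2, and 5 to 19 when single vehicles were left out (19 without vehicle 2 or 3, 5 without vehicle 6 or 7), while Fenofibrate kept a count of 4 in each of these. The count over all genes also moved when single vehicles were left out. It ran from 1046 of 15454 to 2188 of 15440 with Nilotinib and from 1184 of 15506 to 1647 of 15495 with Fenofibrate. Within run codes, libraries with a called member numbered 5, 10 with the neuron marker term and 7 against the 10 nearest serial numbers. The last include Pyrazinamide, Quercetin, Carvedilol and Temazepam, with a members' median log2 fold change of -0.27, -0.15, 0.18 and 0.19 against those neighbours. Ursodiol had 23 called members, 0 against the 10 nearest serial numbers (0 of 13750 genes called) and 0 with the neuron marker term (0 of 15474 genes called). With that term Slc17a7 (0.045), Unc13a (0.061), Sh3gl2 (0.017) and Rims1 (0.011) turned positive in log2 fold change. Nilotinib had 17, all lower, with 11 without the low-count filter and 7 in libraries of the run code alone. Against the nearest serial numbers it had 2, of which 1 was lower and 1 higher, beside 3454 of 13880 genes called. With the marker term it had 18, of which 16 were lower and 2 higher relative to the marker mean, beside 4471 of 15474 genes called. Fenofibrate had 5, all lower, with 11 in the run code alone and 25 against the nearest serial numbers, all lower, beside 6962 of 13882 genes called. With the marker term it had 12, of which 8 were higher and 4 lower relative to the marker mean, beside 6248 of 15474 genes called. CE-326597 had 2, both higher, and 1 against the nearest serial numbers, also higher. With the marker term it had 16, of which 2 were higher and 14 lower relative to the marker mean, beside 2641 of 15474 genes called. Ciprofibrate had 1, with 3 in the run code alone and 0 against the nearest serial numbers, beside 122 of 13873 genes called. For drug classes, DESeq2 called 1 member in the benzodiazepines and 2 in the thyroid hormones. When single drugs were left out, limma with the run code called 0 to 1 in the benzodiazepines (1 without Clonazepam, beside 1884 of 15472 genes called). The causes of these changes were not tested. No paired analysis was possible because each drug has 1 library and drug and vehicle libraries share no pairing by replicate number. With 1 library a drug, the spread within a drug is unknown, and doses are not given in the sources used here.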
